A study of Mus musculus with 6 samples.

Results

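The collagen genes of the embryonic mouse heart were taken as every row of a gene count table whose symbol names a numbered collagen chain, such as *Col1a1*. They are 38 of 13809 genes in the table: 10 fibrillar collagens, 8 basement membrane collagens and 20 other collagens. Every gene in the table held at least 59 counts over the 6 libraries, and collagen genes below that are not analysed here. The libraries came from hearts at E18.5, labelled as heart and described in the study's text as ventricular tissue. WT embryos (3 libraries) were compared with *Pkm1*-KO embryos (3 libraries), which are homozygous for a germline CRISPR/Cas9 deletion in the exon particular to the *Pkm1* transcript of *Pkm* (pyruvate kinase, muscle). The zygotes edited were of BDF1 origin, and the deletion is present in every cell type of the heart, so the groups do not separate cardiomyocytes from the other cells. The comparison asks which collagen transcripts differ in level when PKM1 is absent from the developing heart. The study's discussion says that PKM2 was lower in this mutant too, and that its phenotype may not come from loss of PKM1 alone.

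The libraries held 15597756 to 19875546 counts each in WT and 15567624 to 18577404 each in KO. The collagen genes held 126771 to 168850 counts per library, and 3 counts, taken as the limit of detection, corresponded to at most 0.193 CPM. CPM here are counts relative to the library total, scaled by TMM, a method that brings the bulk of genes to a common level. *Pkm*, whose count covers its *Pkm1* and *Pkm2* transcripts together, had a mean of 1318 ± 41.1 CPM in WT libraries and 542 ± 10.1 CPM in KO libraries (SD, n = 3 each). *Xist*, transcribed from the inactive X chromosome of female cells, was at 4.80 to 5.79 CPM in WT and 2237 to 2332 CPM in KO, while the Y-linked *Ddx3y* was at 86.3 to 98.9 CPM in WT and had 0 counts in KO, so that sex and genotype cannot be told apart in these libraries. The library WT c differed more from WT a and WT b (chi-square per gene 3.76 and 3.24) than the other pairs within a genotype did (1.55 to 1.88). Results that change without it are given with and without it.

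Collagens are extracellular proteins built from chains that wind into helical trimers. Fibrillar collagens form the cross-banded fibrils of the interstitium, which carry load between the cardiomyocytes, valves and vessel walls. Type IV collagen forms the sheet-like network of basement membranes, which in the heart surround each cardiomyocyte and underlie the endothelium. The remaining collagens decorate fibrils, form beaded filaments, or span the cell membrane. Before export, chains are hydroxylated and folded in the endoplasmic reticulum, and outside the cell they are trimmed, cross-linked and bound by integrins and discoidin domain receptors.

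RefSeq start sites gave promoter windows of 300 bases, from 250 bases before to 50 bases after the start, for 31 of the 38 collagen genes (34 windows, GRCm38.p6). They were searched on both strands for CCAAT, the motif bound by the trimeric factor NF-Y, whose subunit NFYa is a subject of the study. The windows of 5 genes are shown because they belong to the genes that lead the results below: *Col4a1* and *Col4a2* share 1 bidirectional start region and were both lower in KO, *Col5a3* and *Col17a1* had the lowest KO to WT ratio of the fibrillar and of the other collagens, and *Col11a2* had the highest of all collagen genes tested. Capitals mark CCAAT or its reverse complement ATTGG, and all are written from 5′ to 3′ on the gene's own strand.
Col4a1, chr8:11312777-11313076, minus strand: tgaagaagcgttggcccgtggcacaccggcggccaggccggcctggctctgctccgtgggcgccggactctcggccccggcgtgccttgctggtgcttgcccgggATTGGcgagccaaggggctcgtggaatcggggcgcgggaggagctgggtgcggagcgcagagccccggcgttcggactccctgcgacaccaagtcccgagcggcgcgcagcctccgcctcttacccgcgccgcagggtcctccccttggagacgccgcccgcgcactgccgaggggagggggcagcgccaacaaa
Col4a2, chr8:11312555-11312854, plus strand: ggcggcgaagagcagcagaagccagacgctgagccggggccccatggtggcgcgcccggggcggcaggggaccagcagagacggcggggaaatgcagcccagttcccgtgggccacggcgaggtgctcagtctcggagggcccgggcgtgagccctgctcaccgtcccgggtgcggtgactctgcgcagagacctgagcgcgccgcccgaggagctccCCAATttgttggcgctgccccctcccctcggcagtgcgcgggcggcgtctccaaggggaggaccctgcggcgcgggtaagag
Col5a3, chr9:20815018-20815317, minus strand: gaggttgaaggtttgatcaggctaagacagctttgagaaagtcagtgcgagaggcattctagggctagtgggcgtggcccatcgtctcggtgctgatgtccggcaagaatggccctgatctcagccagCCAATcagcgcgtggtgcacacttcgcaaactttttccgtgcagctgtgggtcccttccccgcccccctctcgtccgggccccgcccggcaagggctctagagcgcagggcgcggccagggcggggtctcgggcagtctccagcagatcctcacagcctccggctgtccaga
Col17a1, chr19:47691993-47692292, minus strand: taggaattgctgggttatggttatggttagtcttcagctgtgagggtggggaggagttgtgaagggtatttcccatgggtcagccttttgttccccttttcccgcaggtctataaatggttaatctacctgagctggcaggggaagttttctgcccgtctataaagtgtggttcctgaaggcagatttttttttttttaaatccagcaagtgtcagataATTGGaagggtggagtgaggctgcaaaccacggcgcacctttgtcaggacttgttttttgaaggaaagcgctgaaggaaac
Col11a2, chr17:34038888-34039187, plus strand: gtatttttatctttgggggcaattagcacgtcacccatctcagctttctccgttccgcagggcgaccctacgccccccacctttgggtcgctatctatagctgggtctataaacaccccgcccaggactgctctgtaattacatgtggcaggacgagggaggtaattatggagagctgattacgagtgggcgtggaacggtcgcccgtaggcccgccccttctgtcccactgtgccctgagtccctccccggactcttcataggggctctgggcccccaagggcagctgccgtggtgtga
The windows of *Col4a1* and *Col4a2* overlap by 78 bases, and each holds 1 CCAAT. *Col11a2* has no match in its window, which lies at the RefSeq start, upstream of the GENCODE gene start given below. CCAAT was present in 12 of the 34 collagen windows (35.3%), beside 37.4% of all 32851 windows of the same length. Of the collagen genes lower in KO, 4 of the 11 with a window had a match (*Col4a1*, *Col4a2*, *Col5a3* and *Col17a1*), as did 0 of the 2 higher genes with a window and 8 of the 18 that were not called. The GC box letters GGGCGG, on either strand, stood in 21 of the 34 collagen windows (61.8%) and in 35.7% of all windows. By call, they stood in 6 of 12 windows of lower genes, 1 of 2 of higher genes and 14 of 20 of genes not called. For both motifs the genes not called include *Col9a1*, which was not tested and has CCAAT in a window. A match is a run of letters and does not show binding.

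Of the 38 collagen genes, 37 passed edgeR's filter on low counts, and 17 of these differed between KO and WT at an adjusted p under 0.05 (quasi-likelihood test of edgeR, Benjamini-Hochberg over the 13804 genes tested). There were 12 lower in KO (32.4% of the 37, beside 15.7% of all genes tested) and 5 higher (13.5%, beside 14.6%). The lower genes were *Col3a1*, *Col5a1*, *Col5a2* and *Col5a3* among the fibrillar collagens, *Col4a1*, *Col4a2* and *Col15a1* among those of basement membranes, and *Col6a1*, *Col6a2*, *Col6a3*, *Col10a1* and *Col17a1* among the others. The higher genes were *Col11a2*, *Col4a3*, *Col12a1*, *Col14a1* and *Col20a1*. Since the tissue was sequenced in bulk, fewer cells of a type and less RNA per cell cannot be told apart. Scaling the counts by library totals alone raised the all-gene median of the log2 fold change from 0.0017 to 0.049. At that setting 8 collagen genes were lower and 7 higher. The share of lower genes among the collagen calls moved from 70.6% to 53.3%. Of all 13804 genes tested, 1527 were lower and 2911 higher at that setting, in place of 2168 and 2011.

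Most of these differences were small. Changes of at least 1.5-fold with an adjusted p under 0.05 were found for 3 of the 37 genes, *Col17a1*, *Col11a2* and *Col4a3*, beside 6.19% of all genes tested in either direction. The median log2 fold change over the 37 genes was -0.0050, beside 0.0017 over all genes. The class medians were -0.07 for the fibrillar collagens, -0.04 for the basement membrane collagens and 0.08 for the others. The CPM values of the KO libraries did not overlap with those of the WT libraries for 23 of the 37 genes (62.2%), beside 42.4% of all genes tested. *Col9a1* did not pass the filter, with 6, 4 and 8 counts in WT and 21, 4 and 20 counts in KO.

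**Figure D1:**
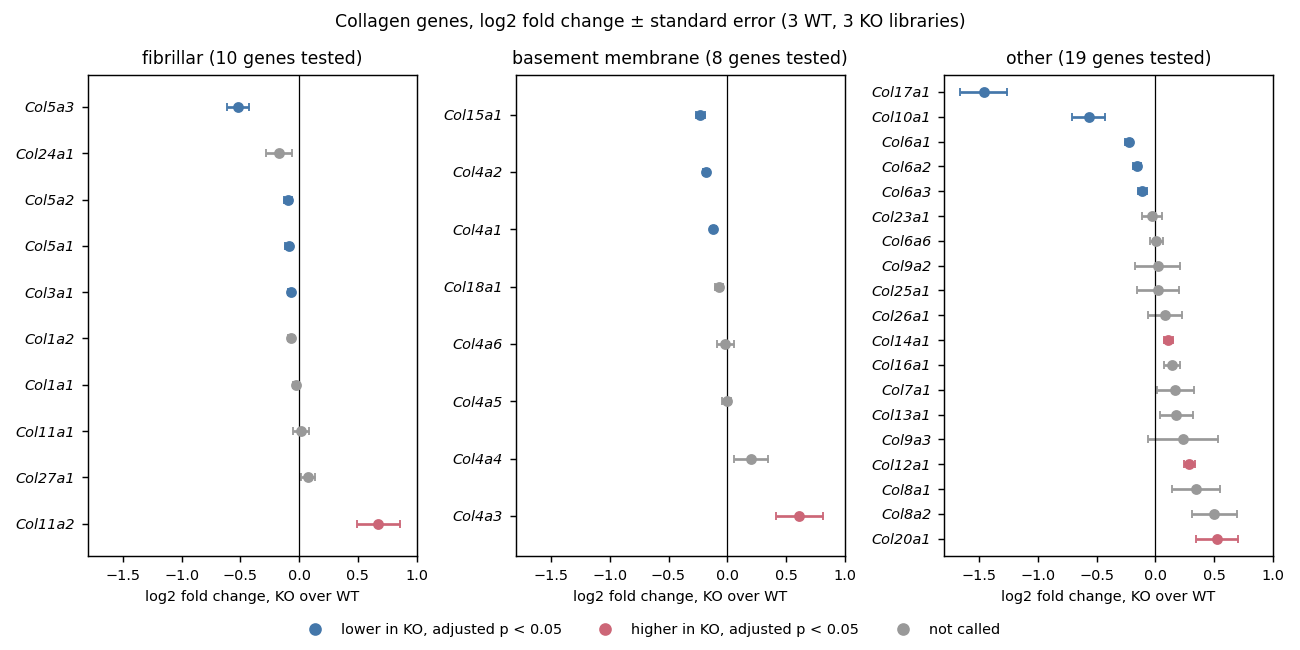
Log2 fold change of KO over WT (points) with its standard error (bars) for the 37 collagen genes tested, in panels for fibrillar (10), basement membrane (8) and other (19) collagens; blue marks genes lower and red genes higher in KO at an adjusted p under 0.05, and grey the 20 genes not called. Most points lie within 0.3 of 0, with *Col17a1* at -1.46 farthest from it.

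Marker genes of the cell types that make collagens also differed between the groups, and their part in the collagen results was not tested. Of 10 fibroblast markers 5 were lower in KO and 0 higher, beside 15.7% lower and 14.6% higher of all genes tested (35.8% lower and 9.85% higher of those at 100 CPM or more), with a summed level of 1273 to 1291 CPM in WT and 1092 to 1107 CPM in KO. *Dcn* and *Lum* stand both there and in the list of fibril assembly genes described further on. Most of the fall in the fibroblast sum came from *Postn*, with means of 700 CPM in WT and 561 CPM in KO. The fibroblast markers *Pdgfra* (log2 fold change -0.02), *Tcf21* (0.01), *Pi16* (-0.06), *Fbln1* (0.002) and *Gsn* (-0.03) were not called. Of 10 smooth muscle and pericyte markers 4 were lower and 1 higher (1556 to 1582 and 1478 to 1495 CPM), and the 10 endothelial markers were divided, with 3 lower and 3 higher (1387 to 1394 and 1385 to 1403 CPM). Of 8 epicardial and mesothelial markers 4 were higher and 0 lower (156 to 159 and 174 to 186 CPM). Of 7 cartilage and valve markers tested 2 were lower and 2 higher (31.2 to 32.3 and 33.6 to 35.6 CPM). The 10 cardiomyocyte markers summed to 127433 to 130750 CPM in WT and 119690 to 121217 CPM in KO, with 8 lower and 1 higher, and of 7 immune markers 1 was lower. None of the markers tested was at 0 in any library.

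The share of genes lower in KO differed by level, in the collagens as in the whole table. Of the 14 collagen genes at 100 CPM or more in WT, 9 were lower and 1 (*Col14a1*) was higher in KO. Thus 64.3% were lower and 7.14% higher, beside 35.8% and 9.85% of the 1909 genes of that level. Of the 15 collagen genes under 10 CPM, 12 (80.0%) had a log2 fold change above 0, beside 58.2% of the 4368 genes of that level. The calls in that low band were 2 lower and 3 higher.

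**Figure D2:**
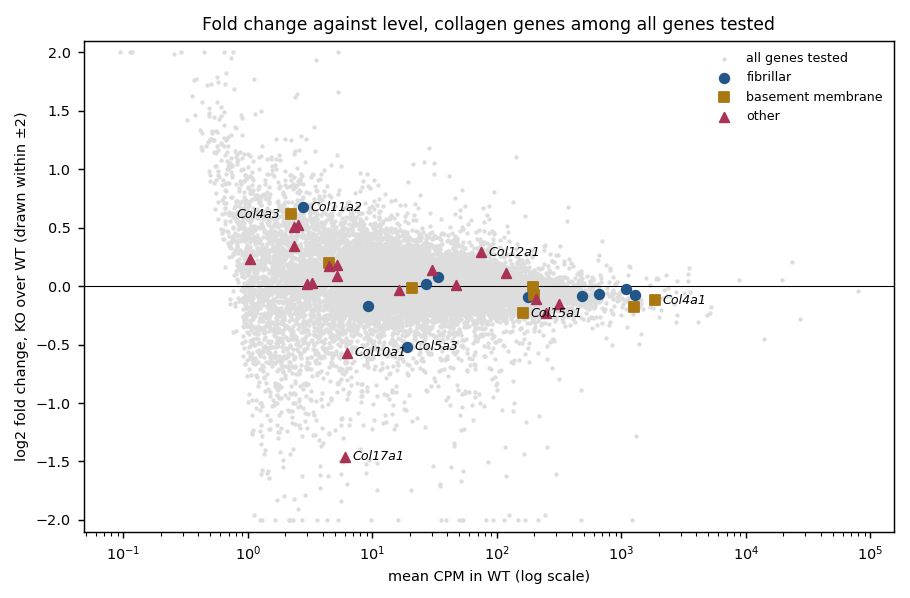
Log2 fold change of KO over WT (vertical axis, drawn within ±2) against mean CPM in WT (horizontal axis, log scale) for all genes tested (grey) and for the collagen genes by class (circles fibrillar, squares basement membrane, triangles other). The collagen genes above 100 CPM lie below 0 except *Col14a1* at 0.11, and *Col17a1*, *Col10a1* and *Col5a3* lie lowest among the less abundant ones.

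Among the fibrillar collagens, 4 of 10 genes were lower in KO and 1 was higher, beside 15.7% and 14.6% of all genes, while the chains of type I collagen did not pass the test. Per kilobase of the transcript with the longest coding sequence, the level in WT was highest for *Col3a1* (232 ± 3.95 CPM per kb, mean ± SD, n = 3), the type III chain of elastic tissues such as vessels, followed by *Col1a1* (182 ± 0.475) and *Col1a2* (124 ± 1.14), the chains of type I collagen. The SDs of these neighbours did not meet. *Col5a1*, a chain of the type V collagen that starts fibrils, came next at 57.8 ± 2.39 CPM per kb, and the other 6 fibrillar genes were at 0.517 to 26.8 CPM per kb. This order depends on the length used. Over the union of all annotated exons, the WT level of *Col3a1* was 0.801 of that of *Col1a1*, and *Col5a1* stood above *Col1a2*.

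*Col3a1* (chr1:45311538-45349706, plus strand, GRCm38) was at 1315, 1294 and 1271 CPM in WT and 1216, 1232 and 1244 CPM in KO. All 3 KO libraries were below all WT libraries, by a margin that was small beside the level (log2 fold change -0.07, SE 0.0234, edgeR adjusted p = 0.0211). This call did not hold under library totals (log2 fold change -0.02, adjusted p = 0.472 from edgeR) or DESeq2 (adjusted p = 0.0623), nor without WT a, WT b, KO a or KO b (edgeR adjusted p up to 0.119). *Col1a1* (chr11:94936224-94953042, plus strand) was at 1077, 1083 and 1080 CPM in WT and 1045, 1056 and 1083 CPM in KO. Its groups overlapped, and its log2 fold change of -0.03 (SE 0.0238, edgeR adjusted p = 0.454) ranged from -0.04 to 0.02 over the other settings tried. *Col1a2* (chr6:4504814-4541544, plus strand) was at 663, 672 and 661 CPM in WT and 631, 630 and 646 CPM in KO. Its groups did not overlap, and it was not called (log2 fold change -0.07, SE 0.0258, edgeR adjusted p = 0.0533). It was called lower in 3 of the 15 alternatives, which were voom, the fit without X and Y genes and the fit without WT c (log2 fold change -0.07, edgeR adjusted p = 0.00800).

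The 3 chains of type V collagen were each lower in KO. *Col5a1* fell by 0.09 and *Col5a2* by 0.10 on the log2 scale (edgeR adjusted p = 0.0289 and 0.0388), and both calls were lost under library totals and DESeq2. The call of *Col5a1* was also lost in edgeR's exact test. With 1 library left out, it was lost for every library except WT a (edgeR quasi-likelihood adjusted p up to 0.131, and 0.0528 without WT c). That of *Col5a2* was lost without WT a, WT b, KO a or KO b (up to 0.199). *Col5a3* (chr9:20770050-20815067, minus strand), the least abundant of these chains, was named after its values were seen and was at 16.1, 19.7 and 21.1 CPM in WT and 13.7, 12.1 and 13.7 CPM in KO. Every KO library was below every WT library, and its decrease of 30.2% held under every setting tried (log2 fold change -0.52, SE 0.0958, edgeR adjusted p = 0.000152).

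*Col11a2* (chr17:34039437-34066685, plus strand), a type XI chain best known from cartilage fibrils, was the only fibrillar collagen called higher in KO. It was at 2.20, 2.81 and 3.35 CPM in WT and 5.09, 4.23 and 3.92 CPM in KO, which rests on 38 to 55 counts per WT library and 67 to 96 per KO library. The KO libraries were all above the WT libraries, and its promoter window is the last of those printed above. The difference was 1.59-fold (log2 fold change 0.67, SE 0.182, edgeR adjusted p = 0.00609), and without KO a the adjusted p was 0.0567. *Col11a1*, the other type XI chain, had a log2 fold change of 0.01 (edgeR adjusted p = 0.892). *Col24a1* (-0.17) and *Col27a1* (0.08), which encode fibrillar collagens of bone and cartilage, were not called.

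**Figure D3:**
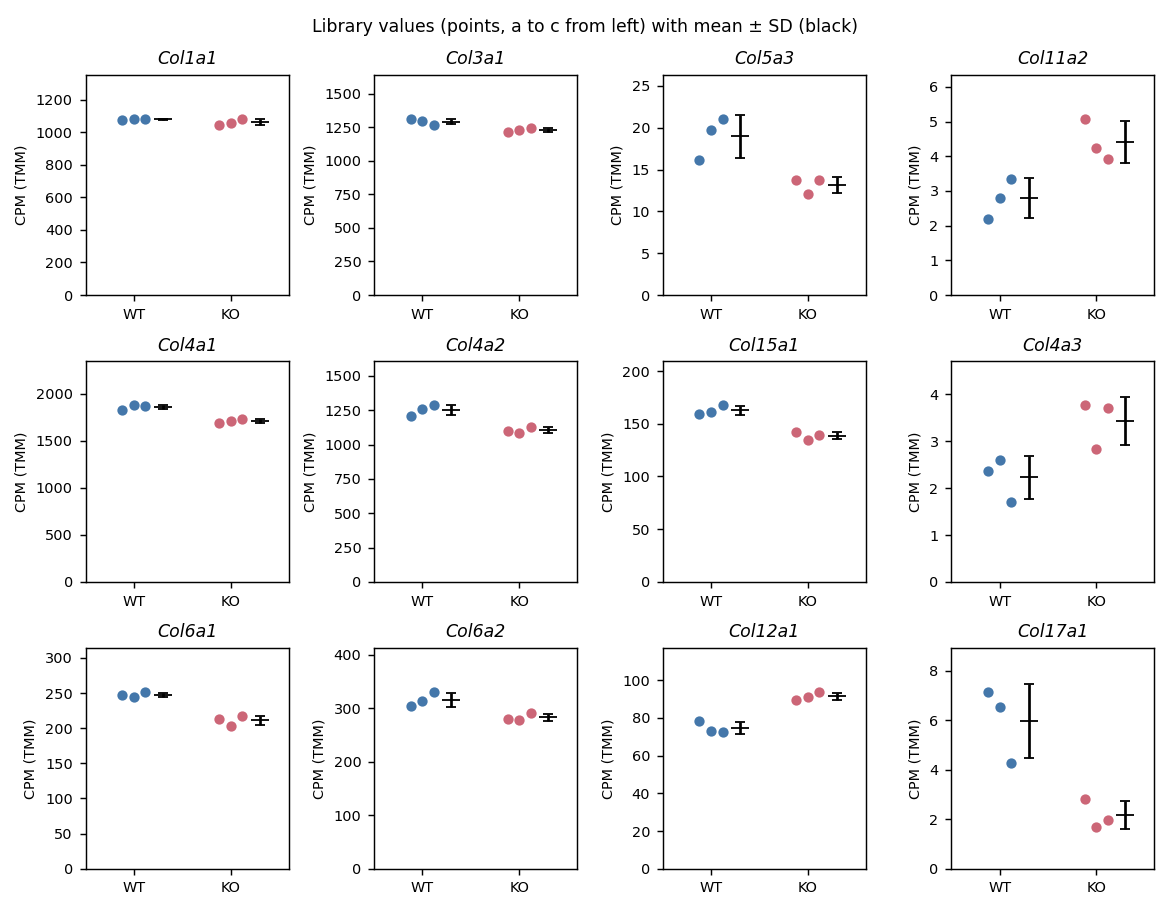
CPM in each library (points, WT blue and KO red, a to c from left) with the mean and SD of the 3 libraries (black) for 12 collagen genes; each vertical axis starts at 0. The groups of *Col1a1* overlap, the other 11 genes do not, and the gap is widest relative to its level for *Col17a1*.

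The basement membrane collagens *Col4a1*, *Col4a2* and *Col15a1* were lower in KO by 7.98%, 11.6% and 14.8%, and these 3 calls held under every setting tried. *Col4a1* was the highest of all 38 collagen genes per kilobase (281 ± 3.53 CPM per kb in WT), followed in its class by *Col4a2* (194 ± 5.78), *Col18a1* (35.3 ± 0.499) and *Col15a1* (31.5 ± 0.789). *Col4a5*, at 29.7 ± 1.11, and *Col15a1* were within their summed SDs of each other, while the order above them was wider than the SDs. The lower part of this order depends on the length used. Over the union of all annotated exons, *Col4a5* stood above *Col18a1* and *Col15a1*.

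*Col4a1* (chr8:11198423-11312826, minus strand) and *Col4a2* (chr8:11312805-11449287, plus strand) encode the chains of the type IV trimer found in nearly all basement membranes, and they lie head to head with annotated ends that overlap by 22 bases. *Col4a1* was at 1833, 1876 and 1870 CPM in WT and 1691, 1709 and 1734 CPM in KO. *Col4a2* was at 1211, 1258 and 1285 CPM in WT and 1102, 1087 and 1130 CPM in KO. For both genes the highest KO library was below the lowest WT library. The changes were -0.12 for *Col4a1* (log2 fold change, SE 0.0219, edgeR adjusted p = 0.000139) and -0.18 for *Col4a2* (SE 0.0255, edgeR adjusted p = 5.55e-06).

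*Col15a1* (chr4:47208161-47313167, plus strand) and *Col18a1* (chr10:77052178-77166548, minus strand) encode the multiplexins, proteoglycan-like collagens of basement membrane zones, of which *Col18a1* is the source of endostatin. *Col15a1* was at 159, 162 and 167 CPM in WT and 142, 135 and 139 CPM in KO. Its KO libraries were all below its WT libraries (log2 fold change -0.23, SE 0.0366, edgeR adjusted p = 2.33e-05). *Col18a1* was at 195, 197 and 200 CPM in WT and 181, 187 and 194 CPM in KO, with the groups just apart, and it was not called (log2 fold change -0.07, SE 0.0349, edgeR adjusted p = 0.113).

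The type IV chains of more restricted membranes, known from the kidney glomerulus, were not called lower. *Col4a3* (chr1:82586921-82722059, plus strand) was at 2.37, 2.60 and 1.71 CPM in WT and 3.76, 2.84 and 3.70 CPM in KO, or 26 to 51 counts per WT library and 45 to 71 per KO library. Its KO libraries were all above its WT libraries (log2 fold change 0.61, SE 0.203, edgeR adjusted p = 0.0231). Without WT c, which held its lowest value, the log2 fold change was 0.47 and the adjusted p 0.0917 in edgeR, and the call was also lost in DESeq2 and without KO a or KO c (up to 0.0952). An antisense gene annotated on the opposite strand covers 5.65% of its exons, and whether the counting used strand is not given in the sources used here. *Col4a4*, which starts 71 bases from *Col4a3* on the other strand, had a log2 fold change of 0.20 (edgeR adjusted p = 0.311).

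*Col4a5* (chrX:141475385-141689234, plus strand) and *Col4a6* (chrX:141165403-141474076, minus strand) lie next to each other on the X chromosome, 1308 bases apart. *Col4a5* was at 186 to 199 CPM in WT and 187 to 198 CPM in KO (log2 fold change -0.01, edgeR adjusted p = 0.934). *Col4a6* was at 19.8 to 21.9 CPM in WT and 19.7 to 20.8 CPM in KO (log2 fold change -0.02, edgeR adjusted p = 0.900). The difference in *Xist* between the groups given above applies to both genes.

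Of the other collagens, 5 of 19 (26.3%) were lower in KO and 3 (15.8%) were higher, beside 15.7% and 14.6% of all genes. The subgroups are small and are given as counts. Of the 4 type VI genes, which build the beaded filaments around cells, 3 were lower and none was higher. The fibril-associated collagens, which bind to the surface of fibrils, had 3 of 6 genes higher and none lower, and the log2 fold changes of all 6 were above 0 (median 0.19). Of the transmembrane collagens 1 of 4 was lower, and of the short-chain and remaining collagens 1 of 5 was lower.

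The type VI chains *Col6a2* (79.9 ± 3.29 CPM per kb in WT), *Col6a1* (60.4 ± 0.764) and *Col6a3* (20.3 ± 0.700) were the highest of this class, in that order. Over the union of all annotated exons, *Col6a1* stood above *Col6a2*, with a WT ratio of 1.49. *Col6a1* (chr10:76708792-76726168, minus strand) was at 247, 245 and 251 CPM in WT and 213, 204 and 217 CPM in KO. *Col6a2* (chr10:76595762-76623630, minus strand), on the same strand 85161 bases away, was at 304, 313 and 330 CPM in WT and 280, 278 and 291 CPM in KO. For both genes every KO library was below every WT library, and the decreases were 14.7% (log2 fold change -0.23, SE 0.0332, edgeR adjusted p = 6.62e-06) and 10.3% (log2 fold change -0.16, SE 0.0333, edgeR adjusted p = 0.000719). *Col6a3* (chr1:90765923-90843971, minus strand) was at 204, 213 and 199 CPM in WT and 186, 193 and 192 CPM in KO. Its groups were also apart (log2 fold change -0.11, SE 0.0348, edgeR adjusted p = 0.0174), although the call was lost under library totals (edgeR adjusted p = 0.185), without WT b and without KO a (up to 0.125). *Col6a6*, a chain that can take the place of *Col6a3* in the trimer, was at 45.7 to 49.5 CPM over all libraries (log2 fold change 0.01).

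*Col12a1* (chr9:79598991-79718831, minus strand), a fibril-associated collagen of tissues under tension, was at 78.5, 73.2 and 72.6 CPM in WT and 89.5, 91.2 and 93.5 CPM in KO. All KO libraries were above all WT libraries, and the increase of 22.2% held under every setting tried (log2 fold change 0.29, SE 0.0448, edgeR adjusted p = 1.62e-05). *Col14a1* (chr15:55307750-55520803, plus strand), a related gene, was at 117, 119 and 116 CPM in WT and 129, 124 and 128 CPM in KO. Its groups were apart by a small margin (log2 fold change 0.11, SE 0.0376, edgeR adjusted p = 0.0259), and the call was lost in DESeq2 and without WT a, WT b, KO a or KO c (edgeR adjusted p up to 0.109). *Col20a1* (chr2:180986535-181018363, plus strand), another fibril-associated collagen, 1.54% of whose exons lie under a second gene on the same strand, was at 2.37, 2.76 and 2.50 CPM in WT and 3.60, 3.60 and 3.81 CPM in KO, or 38 to 71 counts per library. The KO libraries were above the WT libraries (log2 fold change 0.52, SE 0.179, edgeR adjusted p = 0.0271), but the call was lost in DESeq2 and without each of 5 libraries, all except WT b (edgeR adjusted p up to 0.0822, and 0.0534 without WT c). *Col16a1* (log2 fold change 0.14), *Col9a2* (0.02) and *Col9a3* (0.23) were not called, and *Col16a1* was called higher without WT c (0.19, edgeR adjusted p = 0.0259) and under library totals.

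*Col17a1* (chr19:47646344-47692094, minus strand), a transmembrane collagen known from the hemidesmosomes that anchor epithelia, showed the lowest KO to WT ratio of all collagen genes. It was at 7.12, 6.53 and 4.27 CPM in WT and 2.81, 1.71 and 1.99 CPM in KO, or 65 to 128 counts per WT library and 27 to 53 per KO library. The highest KO library was below the lowest WT library, and KO was 63.7% lower (log2 fold change -1.46, SE 0.201, edgeR adjusted p = 2.90e-06). Leaving out any 1 of the libraries gave values from -1.70 to -1.33 on the log2 scale. The other transmembrane collagens, *Col13a1* (0.18), *Col23a1* (-0.03) and *Col25a1* (0.02), were not called.

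*Col10a1* (chr10:34389981-34397085, plus strand), a short-chain collagen of hypertrophic cartilage, was named after its values were seen. It was at 6.14, 6.74 and 5.72 CPM in WT and 4.72, 3.79 and 4.03 CPM in KO, with all KO libraries below all WT libraries (log2 fold change -0.57, SE 0.144, edgeR adjusted p = 0.00359). The related *Col8a1* (0.35) and *Col8a2* (0.50), which encode the endothelial and corneal type VIII chains, were not called, *Col8a2* with an edgeR adjusted p of 0.0512. *Col8a2* was called higher in 4 of the 15 alternatives, among them library totals (edgeR adjusted p = 0.0317). *Col7a1* (0.17), the anchoring fibril collagen, and *Col26a1* (0.08) were not called either.

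Summed over the 38 genes, collagen reads made up 0.840%, 0.850% and 0.843% of all counts in WT and 0.808%, 0.814% and 0.831% in KO. The KO libraries were all below the WT libraries, and the means of 0.844 ± 0.00492% and 0.818 ± 0.0119% (SD, n = 3 each) gave p = 0.1 in a two-sided exact permutation test, the smallest value that 3 against 3 libraries allow. The basement membrane collagens fell on the same side, at 0.363 ± 0.00406% in WT and 0.342 ± 0.00539% in KO (p = 0.1, exact permutation test, n = 3 each). The fibrillar collagens, at 0.373% and 0.370%, overlapped between the groups (p = 0.5), as did the others, at 0.108% and 0.106% (p = 0.2, exact permutation tests). When the sums were taken over TMM-scaled CPM instead, the groups of these 2 classes did not overlap: the fibrillar sum was 3784 to 3800 CPM in WT and 3591 to 3692 CPM in KO, and the sum of the others 1084 to 1106 CPM and 1032 to 1056 CPM (p = 0.1 each, exact permutation test). Reads of long and abundant genes weigh most in these sums.

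**Figure D4:**
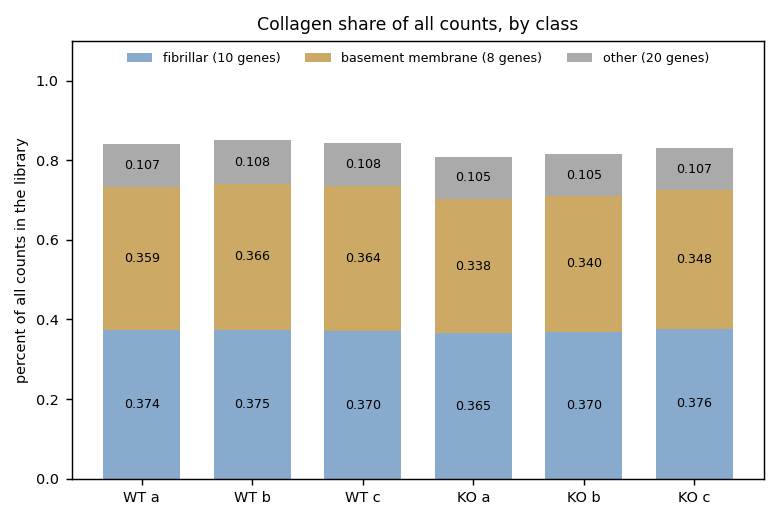
Percent of all counts in each of the 6 libraries that fell on fibrillar (10 genes), basement membrane (8) and other (20) collagen genes, stacked. The total is 0.840 to 0.850% in WT and 0.808 to 0.831% in KO, and the basement membrane part is the one whose groups are farthest apart.

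Ratios between chains within a library do not depend on scaling, and 5 were computed from levels per kilobase. *Col4a1* to *Col4a2* was 1.45 ± 0.0287 in WT and 1.51 ± 0.0208 in KO (SD, n = 3 each). *Col1a1* to *Col1a2* was 1.46 ± 0.0108 and 1.51 ± 0.0110, *Col3a1* to *Col1a1* 1.28 ± 0.0236 and 1.24 ± 0.00998, and *Col6a1* to *Col6a2* 0.756 ± 0.0244 and 0.718 ± 0.0140. The groups did not overlap for these 4 ratios, and each gave the smallest p possible (p = 0.1, two-sided exact permutation test; 0.125 after Benjamini-Hochberg adjustment over the 5 ratios). *Col5a1* to *Col5a2* was 2.16 ± 0.0911 in WT and 2.17 ± 0.0332 in KO, with overlapping groups (p = 0.9, exact permutation test). The largest of these shifts, for *Col6a1* to *Col6a2*, was -0.07 on the log2 scale. The length used sets the size of a ratio but not its log2 shift. Over the union of all annotated exons, the WT means were 0.801 for *Col3a1* to *Col1a1* and 1.49 for *Col6a1* to *Col6a2*.

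The genes that modify, assemble and bind collagens were divided in direction. Over 5 lists, 12 of 59 genes tested were lower in KO and 12 were higher, beside 15.7% and 14.6% of all genes. Under library totals 5 were lower and 21 higher, as were 1527 and 2911 of all 13804 genes. In the list for chain hydroxylation and folding, 6 of 18 genes were higher and 1 was lower. *P4ha1*, a catalytic subunit of prolyl 4-hydroxylase, was at 73.2, 73.4 and 67.5 CPM in WT and 99.0, 100 and 99.0 CPM in KO. All KO libraries were above the WT libraries (log2 fold change 0.48, SE 0.0442, edgeR adjusted p = 3.38e-09). The lysyl hydroxylases *Plod2* (log2 fold change 0.38, edgeR adjusted p = 2.18e-07) and *Plod1* (log2 fold change 0.33, edgeR adjusted p = 2.51e-07) were higher too. The collagen chaperone gene *Serpinh1* was not called (log2 fold change 0.01).

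In the list for cross-linking and fibril assembly, 6 of 12 genes were lower and 1 was higher, beside 15.7% and 14.6% of all genes tested. Of all genes at 100 CPM or more in WT, 35.8% were lower and 9.85% higher. At that level lie *Fn1*, *Sparc*, *Dcn* and *Tnxb*, which were called lower, and *Loxl2* and *Bgn*, which were not called. *Fn1* (fibronectin) was at 1066, 1083 and 1121 CPM in WT and 947, 952 and 962 CPM in KO, with the groups apart (log2 fold change -0.19, SE 0.0249, edgeR adjusted p = 1.05e-06). *Tnxb* (tenascin-X; log2 fold change -0.27, edgeR adjusted p = 7.67e-06) and *Sparc*, a collagen-binding matricellular protein (log2 fold change -0.13, edgeR adjusted p = 0.000282), were lower as well. Of the 7 genes for procollagen export and processing, the N-proteinase genes *Adamts2* (log2 fold change -0.25, edgeR adjusted p = 0.00483) and *Adamts3* (log2 fold change 0.24, edgeR adjusted p = 0.0116) moved in opposite directions and no other was called.

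Of 8 collagen receptor genes, 2 were higher and 1 was lower, beside 14.6% and 15.7% of all genes tested. *Itga1*, which pairs with *Itgb1* to bind type IV collagen, was at 203, 192 and 184 CPM in WT and 238, 244 and 236 CPM in KO, with the groups apart (log2 fold change 0.31, SE 0.0357, edgeR adjusted p = 1.79e-07). *Itga10* was higher (log2 fold change 0.41, edgeR adjusted p = 0.0424) and *Itgb1*, the shared beta chain, lower (log2 fold change -0.09, edgeR adjusted p = 0.0106). Of 14 basement membrane partners 3 were lower and 2 higher, beside 15.7% and 14.6% of all genes tested. *Lama2*, the laminin alpha chain of muscle, was lower (log2 fold change -0.21, edgeR adjusted p = 2.33e-05). *Nid2*, a linker of laminin and type IV collagen, was higher (log2 fold change 0.16, edgeR adjusted p = 0.000737). *Pxdn*, whose product cross-links type IV collagen, was lower (log2 fold change -0.12, edgeR adjusted p = 0.00297).

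**Figure D5:**
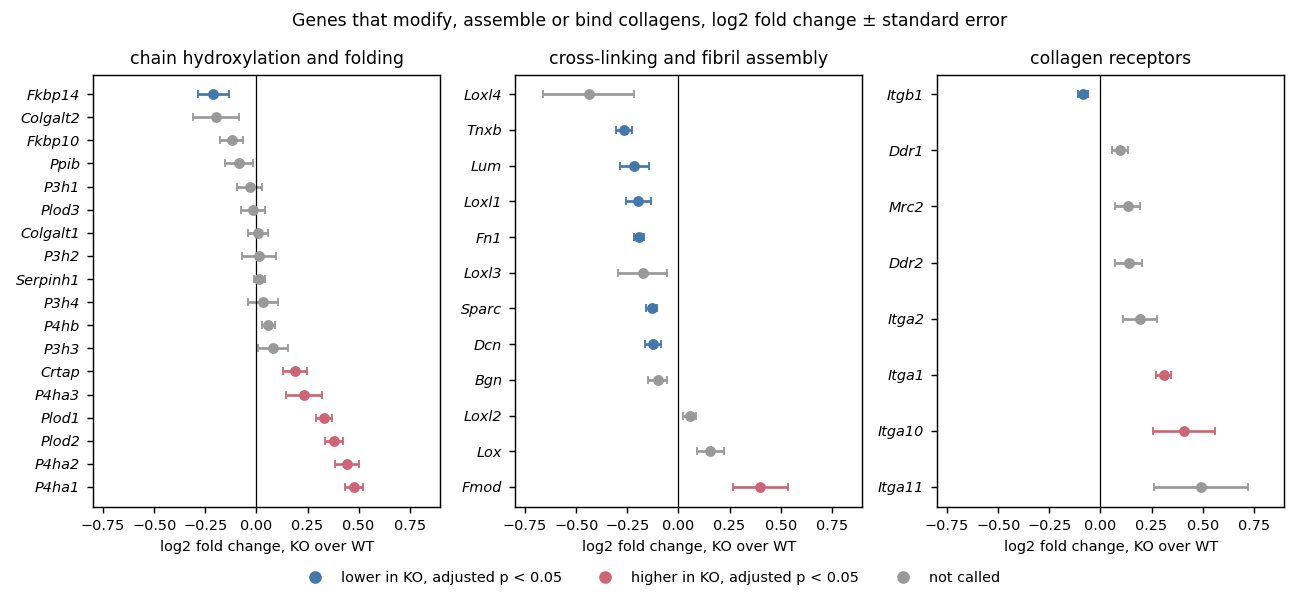
Log2 fold change of KO over WT (points) with its standard error (bars) for genes of chain hydroxylation and folding (18), cross-linking and fibril assembly (12) and collagen receptors (8); colours as for the collagen genes, with grey for genes not called. The called hydroxylation genes lie above 0 except *Fkbp14*, and the called assembly genes lie below 0 except *Fmod*.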

How the data were processed

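The authors depleted total RNA of ribosomal RNA and sequenced paired ends. The submitters' processing notes name cutadapt 1.18, HISAT2, StringTie and mm10, and the counting program is not given in the sources used here. The values used are raw counts per gene symbol, which the authors deposited in 1 table with 3 WT and 3 KO columns and 0 other columns of library values. Its columns carry no replicate number, so libraries are named a to c in column order. The table also holds the authors' own edgeR comparison, which was not used. The methods name 3 biological replicates per genotype.

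Tests on the counts used edgeR 4.0.16 under R 4.3.3: filterByExpr with genotype (5 of 13809 genes left out), TMM, and the quasi-likelihood test, two-sided, with genotype as the only term. Adjusted p are Benjamini-Hochberg values over 13804 genes, called under 0.05. The standard error is the size of the log2 fold change over the square root of F. Shares and chain ratios were tested by exact permutation (scipy 1.17.1). Alternatives were RLE size factors, TMM without *Rn45s* and the collagen genes, library totals, DESeq2 1.42.0, edgeR's exact test, voom of limma 3.58.1, other filters on low counts, no X and Y genes, exon-union lengths, another denominator for shares, and each library left out; library totals and exon-union lengths were added after the data were seen. All 38 collagen symbols matched GENCODE vM21 (GRCm38), which gave positions and lengths. The tests were tried on simulated counts.

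The collagen genes and all lists were chosen with earlier results of these data known. Library values are given for collagen genes changed by at least 1.5-fold, the 3 highest per kilobase of each class, and the 5 with the smallest adjusted p in each direction. X-linked collagen genes are named with their location, and *Col5a3* and *Col10a1* were added after their values were seen. Up to 3 genes of a partner list are named by adjusted p, and *Serpinh1* is named outside that rule.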

Additional observations from a re-analysis of the deposited data

How the results depend on the processing

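Of the 17 collagen genes called, 9 kept the call in all 15 alternatives (*Col4a1*, *Col4a2*, *Col5a3*, *Col6a1*, *Col6a2*, *Col10a1*, *Col12a1*, *Col15a1* and *Col17a1*), and none of the 17 changed sign. The number lower was 8 under library totals and 9 in DESeq2, and the number higher 7 and 2. Fibrillar genes lower in KO numbered 1 under library totals and 1 in DESeq2, in place of 4. The basement membrane genes higher in KO numbered 0 in DESeq2, where the adjusted p of *Col4a3* was 0.0701. The other collagens higher in KO numbered 5 under library totals and 1 in DESeq2, in place of 3. Of the partner genes, 5 were lower and 21 higher under library totals. With each library left out in turn, 8 to 12 collagen genes were lower and 2 to 5 higher, fibrillar genes 1 to 4 and 0 to 1, basement membrane genes higher 0 to 1, and other collagens higher 1 to 4. The upper limits of 5 collagen genes higher and 4 other collagens higher count *Col9a1*, whose values are set aside below. Of all genes, 23.3% to 31.3% were called in the fits that leave a library out, beside 30.3% with all 6 libraries. With *Rn45s* and the 20 most abundant genes out of the denominator, the collagen share differed by -0.0373 percentage points (-0.0261 with them) and the basement membrane share by -0.0284 (-0.0209 with them), KO minus WT. The TMM factors, 0.976 to 0.989 in WT and 1.016 to 1.017 in KO, separate the 2 scalings, so changes of about 0.05 on the log2 scale rest on that choice. Why the other calls were lost was not tested. The fits that leave a library out also rest on fewer libraries. *Col9a1* entered 5 of the alternative fits, with an edgeR adjusted p from 0.00820 to 0.220. In the 4 of them with a filter it passed only through the KO libraries where its count is high, so these values support nothing. Genes under about 100 counts per library are the least precise. No paired analysis was possible because replicate numbers are not part of the column names.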
